A study of Danio rerio with 8 samples.

Results

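The genes described here encode the nuclear subunits and named assembly factors of the mitochondrial respiratory chain and of ATP synthase. They were taken by symbol: probe sets annotated with 1 gene symbol beginning with nduf, sdh followed by a, b, c or d, uqcr, cyc1, cox followed by a digit from 4 to 8, or atp5. Where a gene had several probe sets, the one with the highest mean over the 8 arrays was used. The rule gave 86 genes of the 8793 genes with a single symbol in the table: 37 of complex I, 7 of complex II, 8 of complex III, 16 of complex IV and 18 of ATP synthase. Of these, 77 encode subunits, inhibitors or associated proteins of the complexes and 9 encode assembly factors.

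The respiratory chain sits in the inner mitochondrial membrane. Complexes I and II pass electrons from NADH and succinate to ubiquinone, complex III passes them on to cytochrome c, and complex IV passes them to oxygen. Complexes I, III and IV pump protons, and ATP synthase uses the resulting gradient to make ATP. The mitochondrial genome encodes several core subunits of complexes I, III, IV and ATP synthase. The genes measured here are the nuclear part, and no mitochondrially encoded subunit was found under the names used. Skeletal muscle depends on this machinery for sustained contraction.

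The samples were 8 Affymetrix zebrafish arrays of total RNA from 4 sorted cell populations of 2 embryonal rhabdomyosarcomas, a tumour with features of immature skeletal muscle. The tumours began as embryos carrying 2 reporters, myf5-GFP and mylz2-mCherry (mylz2 is now mylpfa), injected at the one-cell stage with a transgene under the rag2 promoter. Tumours were moved into syngeneic fish without either reporter, taken more than 20 days later and passed through 2 rounds of flow sorting. All populations share that transgene as the source of the tumour and the CG1 strain background, outcrossed 4 times. The GFP-only population had GFP and no mCherry, the double-positive population both, the mCherry-only population mCherry and no GFP, and the double-negative population neither. Each was taken once from each tumour, so n = 2 arrays per population, and no p-value rests on more than 2 tumours. In limma's test the spread was pooled over the 4 populations and moderated over all probe sets. Host cells carry neither reporter. The sources used here do not give the age or sex of the fish.

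Values are on the deposited log scale, read here as log2, so that 1 unit stands for a doubling. In bulk RNA of this kind, fewer cells of a type and less RNA per cell cannot be told apart. Array medians lay between 4.54 and 4.71. In tumour 2 the arrays of mCherry-only and of double-negative cells differed most from the rest: their mean rank correlation with the other arrays was 0.68 and 0.678, against 0.761 to 0.801 for the other 6 arrays. The difference by GFP over the genes described here is therefore also given by tumour and without them, and other results where stated. mylpfa, the source of the mCherry promoter, had 7.4 and 6.23 in GFP-only cells of tumours 1 and 2, 10.71 and 10.87 in double-positive cells, 10.8 and 9.21 in mCherry-only cells, and 4.58 and 4.73 in double-negative cells. Its level was thus higher on all 4 arrays sorted for mCherry. myf5, a myogenic factor, had 5.47 and 5.21 in GFP-only and 3.81 and 6.02 in double-positive cells, against 3.28 and 4.34 in mCherry-only and 3.96 and 4.07 in double-negative cells, so that its GFP-positive and GFP-negative values overlapped.

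Respiratory chain and ATP synthase genes had higher values in the populations with myf5-GFP than in those without it, in both tumours, but no single gene passed the test. The median of the 86 genes was 7.9 and 7.58 in GFP-only cells of tumours 1 and 2 and 7.86 and 7.82 in double-positive cells, against 7.4 and 6.47 in mCherry-only cells and 7.38 and 6.39 in double-negative cells. The 4 GFP-positive arrays all lay above the 4 GFP-negative arrays, and the 2 lowest were those of tumour 2. The genes' median difference, GFP-positive minus GFP-negative, was 0.78, from -0.54 for cox4i1l to 2.42 for ndufa11. The same median was -0.01 over all 15502 probe sets and 0.33 over 1583 probe sets whose mean level lay within the middle quartiles of the 86 genes, 6.55 to 8.28.

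**Figure D1:**
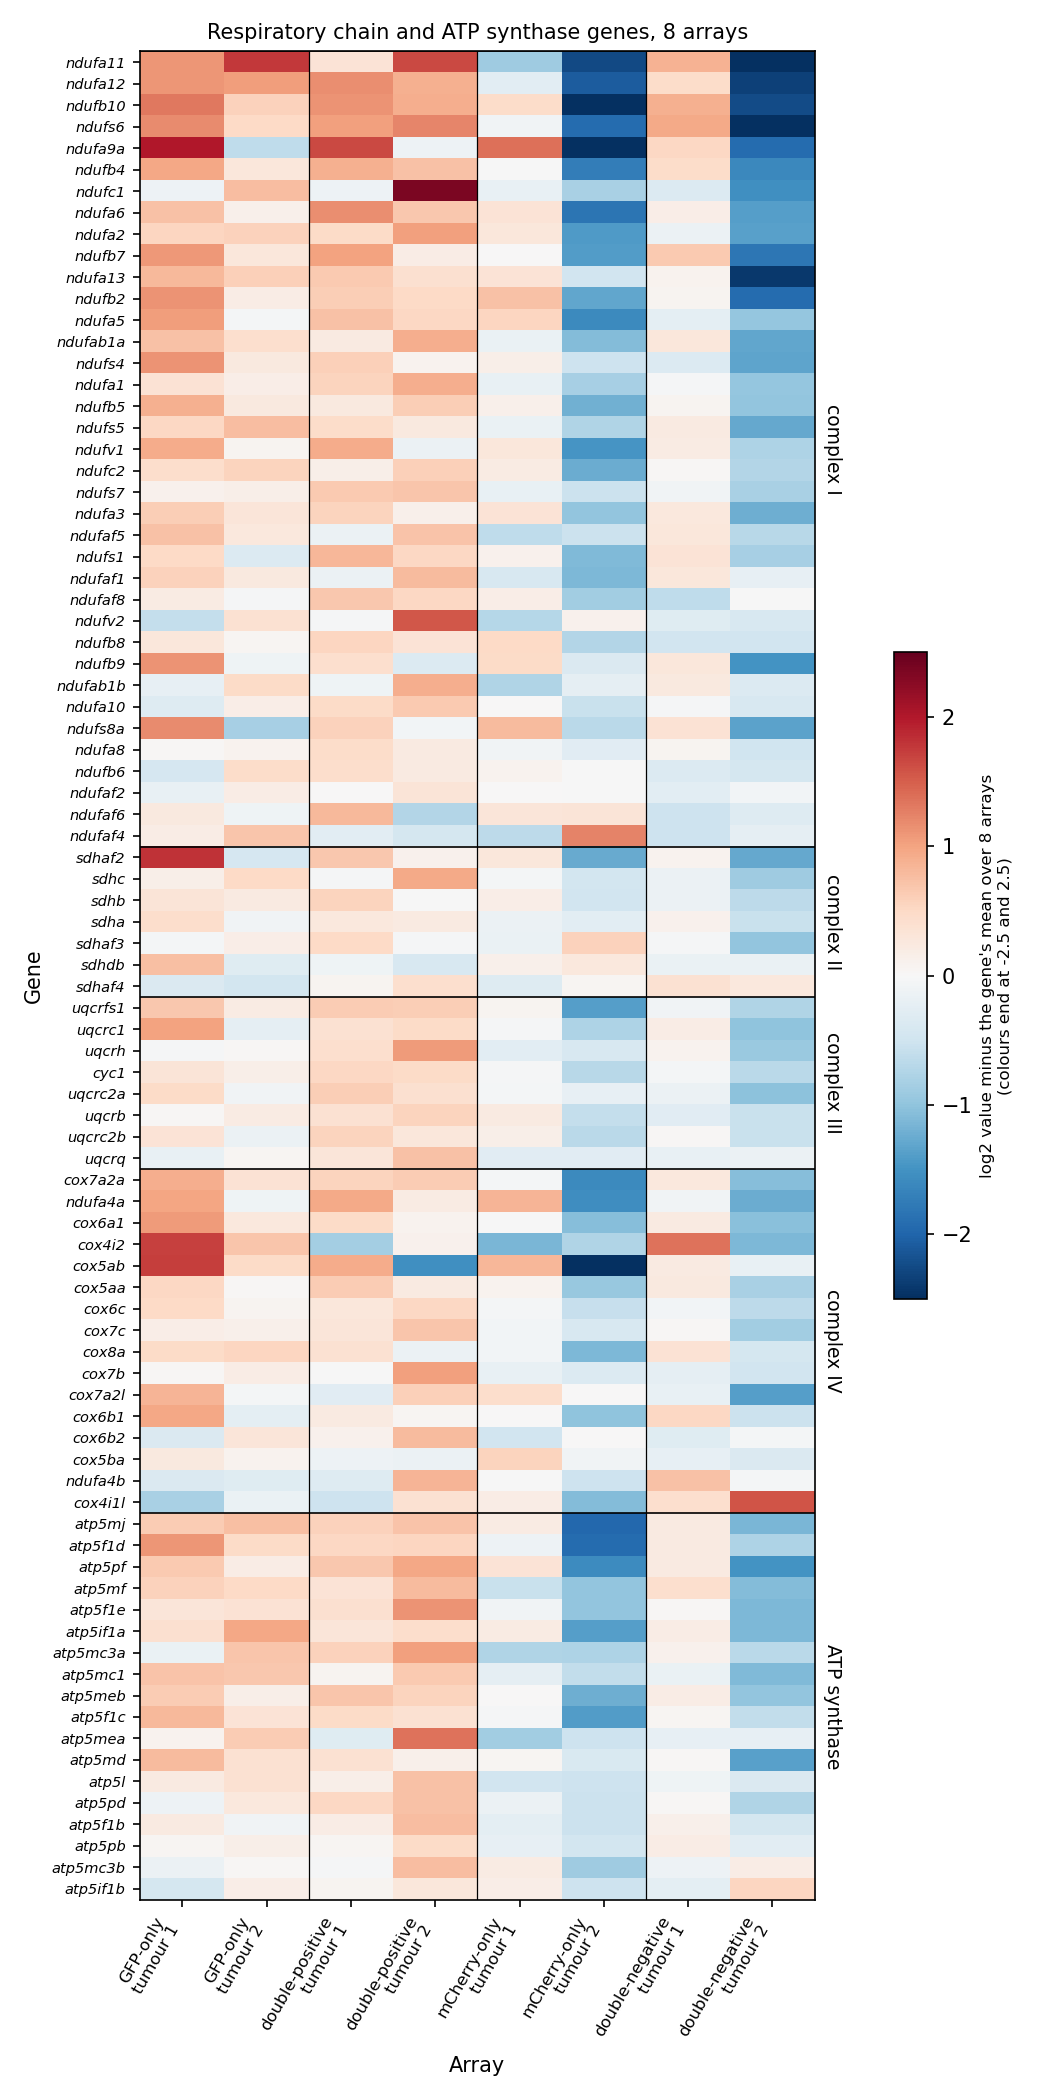
Values of all 86 genes on the 8 arrays, each gene shown as its difference (log2) from its own mean, with genes grouped by complex and arrays grouped by population. The GFP-only and double-positive columns are mostly above each gene's mean, and in tumour 2 the columns of mCherry-only and of double-negative cells hold the lowest value of 39 and 36 genes.

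The median difference was 0.42 in tumour 1 and 1.1 in tumour 2. The same medians were 0.05 and -0.07 over all probe sets and 0.21 and 0.48 over those of like brightness. The GFP-positive mean was higher in 80 genes in tumour 1, in 81 in tumour 2 and in 77 in both (89.5%), against 32.4% of all probe sets and 56.3% of those of like brightness. It was lower in both tumours for cox4i1l and sdhaf4, the count of 2 being named after their values were seen. Without the GFP-negative arrays of tumour 2 the median difference was 0.37.

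limma's moderated test, two-sided and with Benjamini-Hochberg adjustment over all probe sets, called 0 of the 86 genes between GFP-positive and GFP-negative populations, against 0.839% of all probe sets. The smallest adjusted p among the 86 was 0.249, for ndufa11. At an unadjusted p under 0.05, 24 genes were higher and 0 lower in GFP-positive cells, while 6.29% of all probe sets were higher and 5.01% lower. Of the 1583 probe sets of like brightness, 241 were higher and 94 lower. With the tumour as a block, which uses the pairing of populations from the same tumour, the count called was again 0 and the smallest adjusted p was 0.0675, for ndufa12. The standard error of a gene's difference ranged from 0.36 to 0.99 with a median of 0.44, so a difference near the median of 0.78 was under 2 standard errors for a typical gene.

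A count that needs no model gave the same direction. In 23 of the 86 genes (26.7%), all 4 GFP-positive arrays lay above all 4 GFP-negative arrays, against 2.34% of all probe sets and 6.76% of those of like brightness. No gene of the 86 had the opposite order. These 23 comprised 8 of complex I, 1 of complex II, 2 of complex III, 4 of complex IV and 8 of ATP synthase. Without the GFP-negative arrays of tumour 2 the count was 24 (27.9%), against 5.87% of all probe sets and 10.5% of those of like brightness. Within tumour 1 alone both GFP-positive arrays exceeded both GFP-negative arrays in 50 genes (58.1%). All probe sets gave 13.9% and those of like brightness 24.2%. Within tumour 2 alone the count was 72 genes (83.7%), against 25.9% and 44.5%. The 2 GFP-negative arrays of tumour 2 were the lowest of the 8 in 59 genes (68.6%), against 13.9% and 27.7%.

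**Figure D2:**
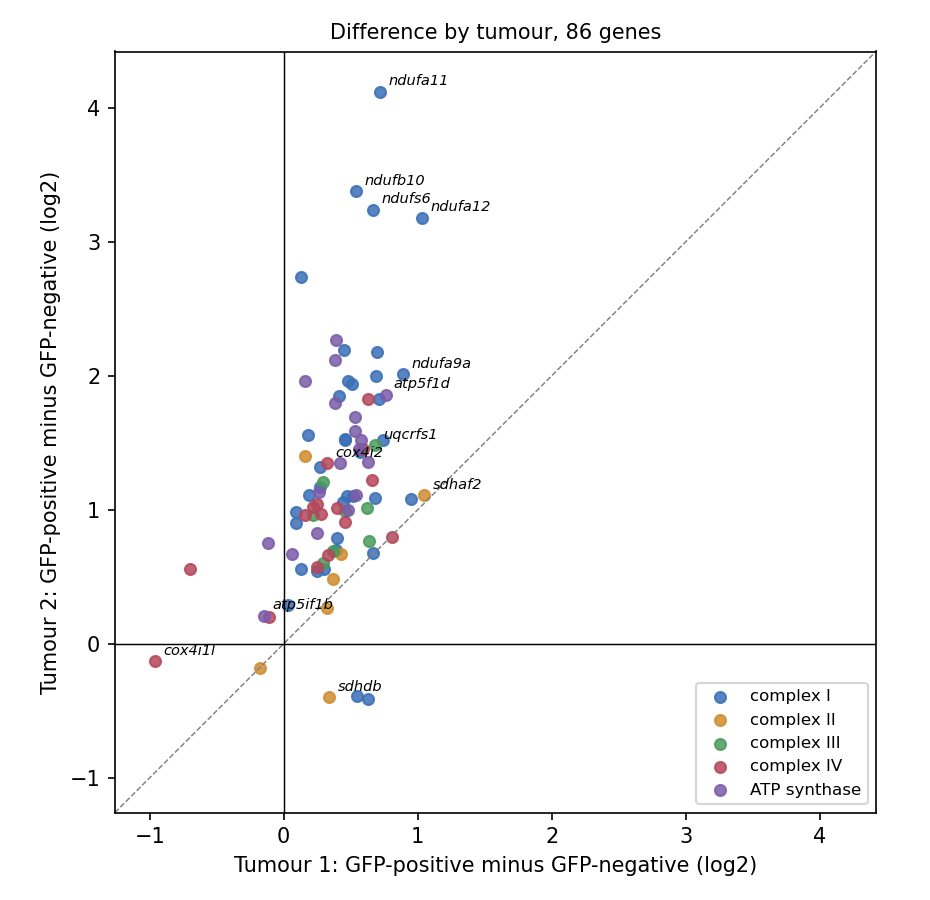
GFP-positive minus GFP-negative difference (log2) of each of the 86 genes in tumour 1 (horizontal axis) and tumour 2 (vertical axis), coloured by complex, with a dashed line where both are equal. Of the 86 points, 77 lie above 0 on both axes, and the median is 0.42 in tumour 1 and 1.1 in tumour 2.

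Complex I, the NADH dehydrogenase at the entry of the chain, had the widest range. Its 37 genes had a median difference of 0.89 between GFP-positive and GFP-negative populations, 0.47 in tumour 1 and 1.32 in tumour 2, and 35 were higher in both tumours. All 26 accessory subunits, which surround the redox core, were higher in both tumours, with a median of 1.13. The 5 core redox subunits measured had a median of 0.75 and were higher in both tumours as well.

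ndufa11, an accessory subunit of the membrane arm, had 8.33 and 9.01 in GFP-only cells of tumours 1 and 2 and 7.57 and 8.88 in double-positive cells, against 6.35 and 4.98 in mCherry-only cells and 8.11 and 4.66 in double-negative cells. The double-negative array of tumour 1 lay inside the range of the GFP-positive arrays, and the other 3 GFP-negative arrays lay below it. Its difference between GFP-positive and GFP-negative populations was 2.42 ± 0.72 (SE), with an adjusted p of 0.249 by limma. ndufa11 also had the largest difference of the 86 genes for GFP-only minus mCherry-only cells, 3 ± 1.02 (adjusted p = 0.307).

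Among genes named after their values were seen, ndufa12, an accessory subunit at the junction of the arms, had 8.49 and 8.44 in GFP-only and 8.55 and 8.27 in double-positive cells. It had 7.13 and 5.31 in mCherry-only and 7.85 and 5.05 in double-negative cells, so that the groups did not overlap. The difference was 2.1 ± 0.64 (SE; adjusted p = 0.255, and 0.0675 with the tumour as a block). ndufs6, an accessory subunit needed for late assembly, had 8.42, 7.73, 8.27 and 8.45 on the GFP-positive arrays, against 7.15, 5.32, 8.19 and 4.37 on the GFP-negative ones. The tumour 1 double-negative array lay among the GFP-positive values. ndufb10, an accessory subunit of the membrane arm, had 6.92 to 7.65 on the GFP-positive arrays, against 6.8 and 7.22 in GFP-negative populations of tumour 1 and 3.31 and 4.1 in those of tumour 2. Its values within tumour 1 were thus close together, and its difference of 1.96 ± 0.83 (SE, adjusted p = 0.412) came mostly from tumour 2.

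ndufc1, an accessory subunit, had the largest difference between mCherry-positive and mCherry-negative populations among complex I genes with the same sign in both tumours. It had 6.33 and 7.23 in GFP-only cells of tumours 1 and 2, 6.33 and 8.82 in double-positive cells, 6.28 and 5.65 in mCherry-only cells and 6.12 and 4.93 in double-negative cells. The 4 arrays of tumour 1 lay within 6.12 to 6.33 and those of tumour 2 ranged from 4.93 to 8.82. The difference was 1.43 ± 0.59 (SE, adjusted p = 0.393) for GFP and 0.62 ± 0.59 (adjusted p = 0.993) for mCherry.

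The electron-carrying core of complex I was not tested against its accessory subunits. ndufv1, the subunit that binds NADH, had 8.3 and 7.45 in GFP-only and 8.31 and 7.23 in double-positive cells, against 7.67 and 5.9 in mCherry-only and 7.58 and 6.6 in double-negative cells. Within each tumour its GFP-positive values lay above the GFP-negative ones, by 0.68 in tumour 1 and 1.09 in tumour 2 on average. ndufs1, the largest iron-sulfur subunit, had 7.5 and 6.67 in GFP-only and 7.83 and 7.53 in double-positive cells, against 7.11 and 5.9 in mCherry-only and 7.34 and 6.18 in double-negative cells. Neither passed the test (adjusted p = 0.581 for ndufv1 and 0.593 for ndufs1).

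ndufa9a, an accessory subunit, had the largest difference between the tumours in complex I: over the populations, its value in tumour 2 minus that in tumour 1 averaged -2.78. In tumour 2 it had 4.72 in GFP-only cells, 5.23 in double-positive cells, 2.49 in mCherry-only cells and 3.43 in double-negative cells, and in tumour 1 it had 7.37, 7.02, 6.74 and 5.88 in the same order. The GFP-positive values were the higher ones within each tumour. Its difference by GFP had the largest standard error of the 86 genes, 1.45 ± 0.99 (adjusted p = 0.637).

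Assembly factors had a smaller median than subunits. The 9 factors, 6 for complex I and 3 for complex II, had a median difference of 0.3 and were higher in both tumours in 6, while the 77 subunits had a median of 0.81 and were higher in both tumours in 71. The smallest value among the complex I factors was that of ndufaf4, 0.08, and the largest that of ndufaf5, 0.79. No assembly factor had all GFP-positive arrays above all GFP-negative arrays, against 23 of the 77 subunits (29.9%) and 2.34% of all probe sets. At that last share a count of 0 among 9 genes would be usual, so it does not set the factors apart from all probe sets. The factors other than sdhaf2 were also dim. Their population means ran from 3.56 for ndufaf8 in mCherry-only cells to 6.3 for ndufaf5 in GFP-only cells, below the range of like brightness, 6.55 to 8.28. The difference between factors and subunits was not tested.

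Complex II, succinate dehydrogenase, belongs to both the chain and the TCA cycle and had a median difference of 0.42 (0.34 in tumour 1 and 0.48 in tumour 2). sdha, the flavoprotein that oxidises succinate, had 8.37 and 7.84 in GFP-only and 8.2 and 8.16 in double-positive cells, against 7.79 and 7.66 in mCherry-only and 8.04 and 7.38 in double-negative cells. sdhb, the iron-sulfur subunit, had 7.72 and 7.61 in GFP-only and 7.95 and 7.38 in double-positive cells, against 7.56 and 6.91 in mCherry-only and 7.24 and 6.74 in double-negative cells. For both genes the GFP-positive and GFP-negative ranges overlapped, and the differences were 0.42 ± 0.38 for sdha and 0.55 ± 0.39 for sdhb (SE; adjusted p = 0.732 and 0.647).

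Of the factors that mature this enzyme, sdhaf2, which helps attach the flavin to sdha, had 8.35 and 6.13 in GFP-only and 7.21 and 6.65 in double-positive cells, against 6.82 and 5.29 in mCherry-only and 6.63 and 5.27 in double-negative cells. Its difference was 1.08 ± 0.60 (SE, adjusted p = 0.551), 1.05 in tumour 1 and 1.11 in tumour 2, and its value in tumour 2 minus that in tumour 1 averaged -1.42, the largest difference between tumours in complex II. sdhaf3, which acts in iron-sulfur insertion into sdhb, had 4.14 to 5.69 over the 8 arrays and a difference of 0.30 ± 0.41. The GFP-positive range of sdhaf3, 5.08 to 5.62, lay inside its GFP-negative range.

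Complex III, which passes electrons from ubiquinol to cytochrome c, had a median difference of 0.71 (0.41 in tumour 1 and 0.98 in tumour 2). All 8 genes measured were higher in GFP-positive populations in both tumours. uqcrfs1, the Rieske iron-sulfur protein, had 7.25 and 6.78 in GFP-only and 7.21 and 7.19 in double-positive cells, against 6.63 and 5.19 in mCherry-only and 6.47 and 5.82 in double-negative cells. cyc1, cytochrome c1, had 8.37 and 8.2 in GFP-only and 8.56 and 8.52 in double-positive cells, against 8.01 and 7.36 in mCherry-only and 8 and 7.37 in double-negative cells. In both genes the groups did not overlap, with differences of 1.08 ± 0.44 for uqcrfs1 and 0.73 ± 0.38 for cyc1 (SE; adjusted p = 0.389 and 0.525).

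In uqcrc1 and uqcrh the groups overlapped. uqcrc1, a core protein, had 8.07 and 6.84 in GFP-only and 7.45 and 7.55 in double-positive cells, against 7.04 and 6.31 in mCherry-only and 7.25 and 6.07 in double-negative cells. The tumour 2 GFP-only value lay below both GFP-negative values of tumour 1. uqcrc1 had the largest difference between tumours in this complex, an average of -0.76 for tumour 2 minus tumour 1. uqcrh, the hinge protein between cytochromes c1 and c, had 7.84 and 7.9 in GFP-only and 8.29 and 8.93 in double-positive cells, against 7.6 and 7.47 in mCherry-only and 7.95 and 6.94 in double-negative cells. Its difference was 0.75 ± 0.40 by GFP (SE, adjusted p = 0.536) and 0.41 ± 0.40 by mCherry (adjusted p = 0.993), the largest for mCherry among genes of its complex with the same sign in both tumours.

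Complex IV, cytochrome c oxidase, had a median difference of 0.64 over 16 genes (0.3 in tumour 1 and 0.97 in tumour 2), 13 of them higher in both tumours. cox7a2a, a small membrane subunit, had 7.28 and 6.73 in GFP-only and 6.92 and 7 in double-positive cells, against 6.31 and 4.77 in mCherry-only and 6.63 and 5.3 in double-negative cells. Its groups did not overlap, and its difference of 1.23 ± 0.48 (SE, adjusted p = 0.376) was the largest of this complex. cox5aa, a matrix-side subunit, had 9.58 and 9.11 in GFP-only and 9.71 and 9.3 in double-positive cells, against 9.16 and 8.13 in mCherry-only and 9.32 and 8.26 in double-negative cells. The groups of cox5aa overlapped, and its difference was 0.71 ± 0.43.

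cox4i2, a subunit known in mammals as a form used in lung and under low oxygen, had the largest difference of complex IV for GFP-only minus mCherry-only cells. It had 7.11 and 6.11 in GFP-only and 4.56 and 5.51 in double-positive cells, against 4.27 and 4.65 in mCherry-only and 6.77 and 4.28 in double-negative cells. Its GFP-only values lay above those of both mCherry-positive populations in each tumour, as did those of cox5ab, cox6a1 and cox8a in this complex. Genes of other complexes, among them ndufa11, ndufs4 and atp5mc1, had the same order. Its share over all probe sets was not computed. The difference of cox4i2 was 2.15 ± 0.81 (SE, adjusted p = 0.359) for GFP-only minus mCherry-only cells and -1.32 ± 0.57 (adjusted p = 0.884) between mCherry-positive and mCherry-negative populations. That made it the only one of the 86 genes with an unadjusted p under 0.05 for mCherry, where 3.43% of all probe sets were higher and 2.04% lower. cox4i1l, named after its values were seen, had 4.6 and 5.24 in GFP-only and 4.89 and 5.79 in double-positive cells, against 5.58 and 4.32 in mCherry-only and 5.82 and 6.97 in double-negative cells.

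ATP synthase had a median difference of 1.0 over 18 genes (0.41 in tumour 1 and 1.4 in tumour 2), the same as that of the 31 complex I genes that are not assembly factors (0.46 and 1.52), and 16 were higher in GFP-positive populations in both tumours. Of the 24 genes with an unadjusted p under 0.05, 9 encode ATP synthase subunits, 13 complex I subunits, 1 a complex III subunit and 1 a complex IV subunit. atp5f1b, the catalytic beta subunit of the F1 head, had 9.59 and 9.28 in GFP-only and 9.56 and 10.15 in double-positive cells, against 9.13 and 8.84 in mCherry-only and 9.51 and 8.94 in double-negative cells. Its groups overlapped, with a difference of 0.54 ± 0.38 (SE, adjusted p = 0.649).

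atp5f1d, the delta subunit of the central stalk, had 7.97 and 7.34 in GFP-only and 7.39 and 7.4 in double-positive cells, against 6.74 and 4.94 in mCherry-only and 7.1 and 6.09 in double-negative cells. Its groups did not overlap, and the difference was 1.31 ± 0.49 (SE, adjusted p = 0.353). For GFP-only minus mCherry-only cells it was 1.82 ± 0.69 (adjusted p = 0.366), the largest of ATP synthase. atp5mc1, which encodes subunit c of the proton-driven ring, had 8.38 and 8.34 in GFP-only and 7.73 and 8.32 in double-positive cells, against 7.45 and 7.05 in mCherry-only and 7.5 and 6.57 in double-negative cells. The groups were again separate, and the difference was 1.05 ± 0.40 (adjusted p = 0.360).

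atp5mj, a small subunit of the membrane part, had 7.54 and 7.64 in GFP-only and 7.47 and 7.6 in double-positive cells, against 7.1 and 4.94 in mCherry-only and 7.13 and 5.75 in double-negative cells. The 4 GFP-positive arrays lay within 7.47 to 7.64. Its difference was the largest of ATP synthase, 1.33 ± 0.54 (SE, adjusted p = 0.385), with 0.39 in tumour 1 and 2.27 in tumour 2. atp5pf, a coupling subunit of the peripheral stalk, had 9.51 and 9.03 in GFP-only and 9.53 and 9.82 in double-positive cells, against 9.2 and 7.27 in mCherry-only and 9.08 and 7.35 in double-negative cells. Its groups overlapped by a little, and the difference was 1.25 ± 0.55 (adjusted p = 0.434). atp5pf also had the largest difference between tumours in ATP synthase, an average of -0.96 for tumour 2 minus tumour 1.

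**Figure D3:**
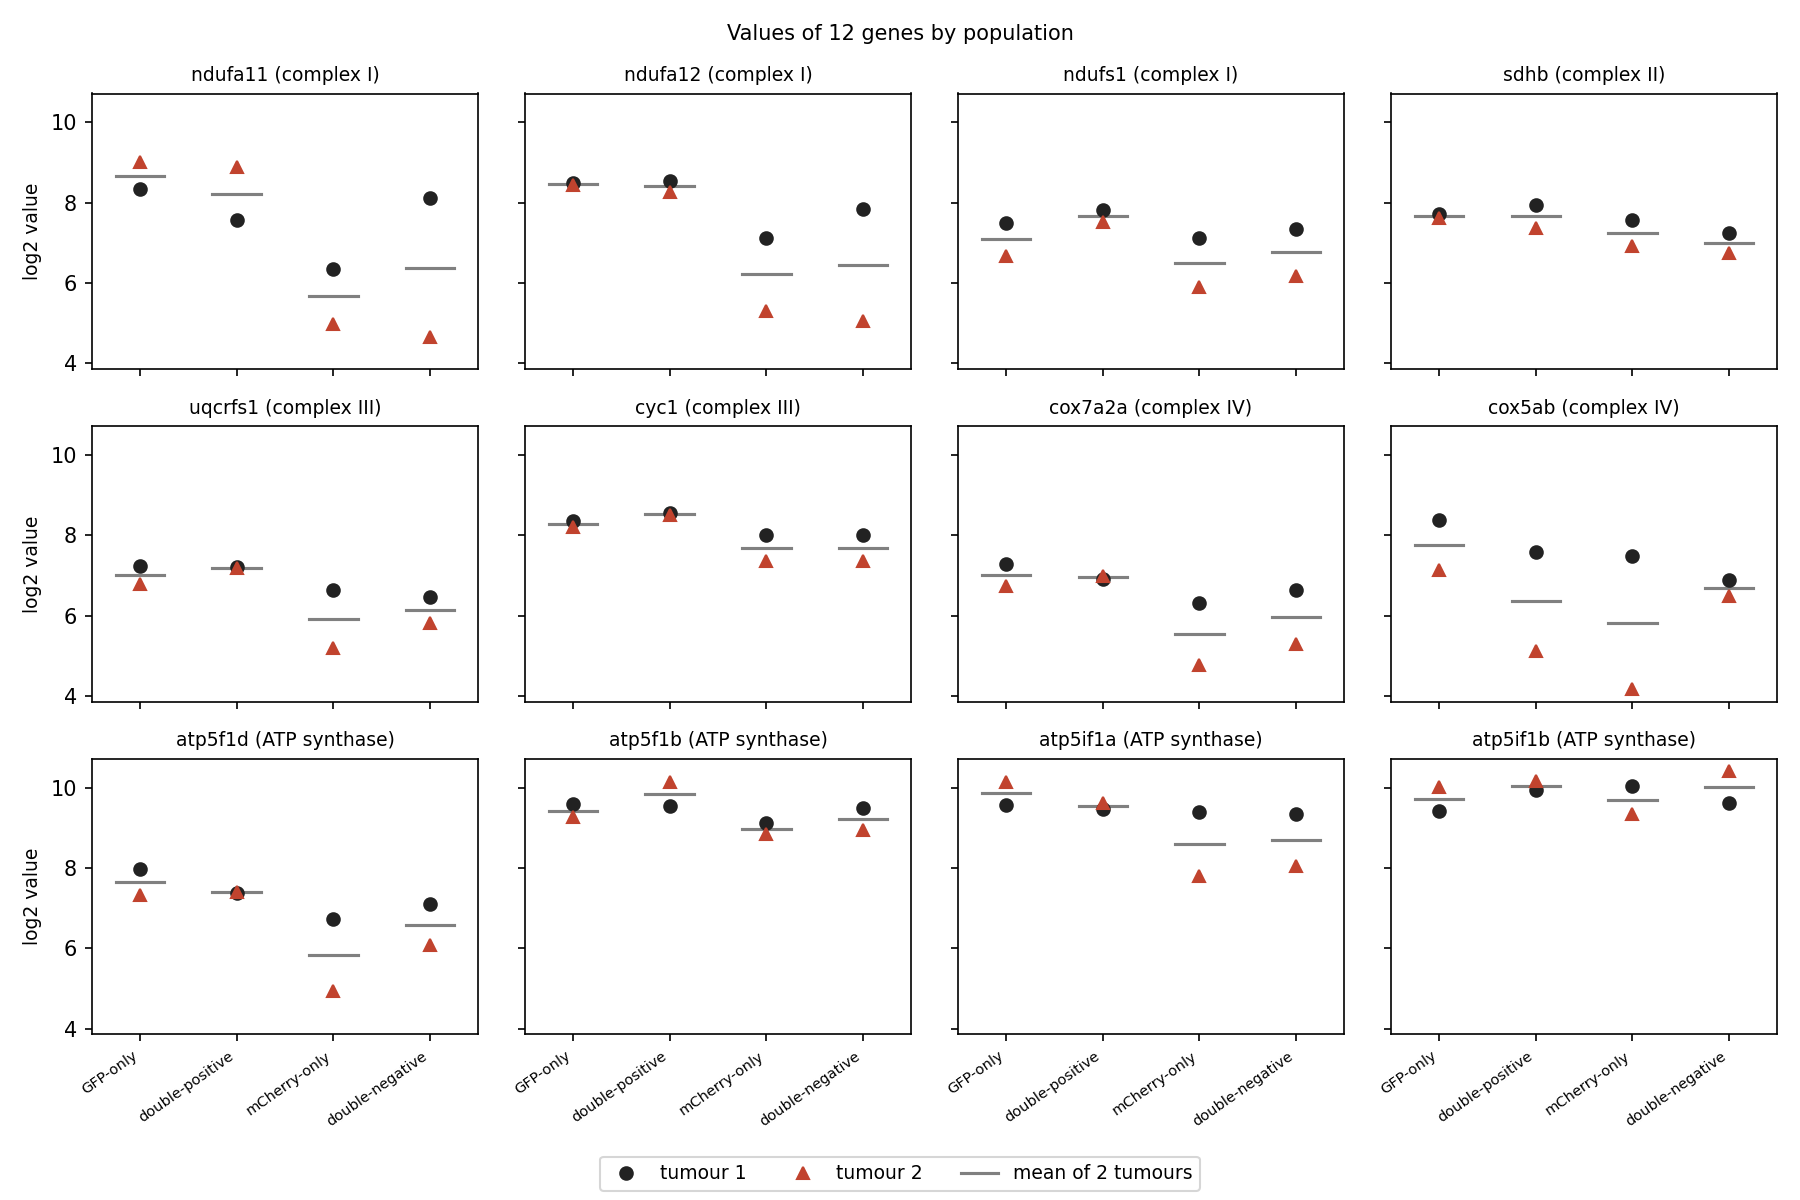
Deposited log2 values of 12 genes by population, with circles for tumour 1, triangles for tumour 2 and a line at the mean of the 2 tumours. ndufa11 lies between 7.57 and 9.01 on the GFP-positive arrays and between 4.66 and 8.11 on the GFP-negative arrays.

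Zebrafish keep duplicated copies of several of these genes, and the values of 8 pairs of copies or forms were set side by side. The inhibitor that blocks reverse rotation of ATP synthase has the copies atp5if1a and atp5if1b. atp5if1a had 9.58 and 10.15 in GFP-only and 9.48 and 9.63 in double-positive cells, against 9.39 and 7.8 in mCherry-only and 9.36 and 8.06 in double-negative cells. atp5if1b had 9.43 and 10.03 in GFP-only and 9.94 and 10.16 in double-positive cells, against 10.04 and 9.35 in mCherry-only and 9.63 and 10.41 in double-negative cells. The difference by GFP was 1.06 for atp5if1a, whose groups did not overlap, and 0.03 for atp5if1b, whose groups did. The first minus the second was 1.03, 0.31 in tumour 1 and 1.75 in tumour 2.

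The c-ring copy atp5mc3a had 8.29 and 9.15 in GFP-only and 9.03 and 9.48 in double-positive cells, against 7.7 and 7.68 in mCherry-only and 8.56 and 7.78 in double-negative cells. Its partner atp5mc3b had 8.93 and 9.11 in GFP-only and 9.06 and 9.85 in double-positive cells, against 9.28 and 8.2 in mCherry-only and 8.96 and 9.27 in double-negative cells. The differences by GFP were 1.06 and 0.31. ndufa4a and ndufa4b, named for complex I but known in mammals as a subunit of complex IV and named here after their values were seen, had differences of 1.02 and -0.07. The first exceeded the second by 1.29 in tumour 1 and by 0.89 in tumour 2.

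The exact permutation test of these differences exchanged GFP labels within each tumour (two-sided, 36 arrangements). Its smallest possible p is 0.0556, above the threshold of 0.05, so that it could call no pair and its result does not show that copies act alike. ndufa4a minus ndufa4b had that smallest value, with an adjusted p of 0.296 over the 8 pairs. The adjusted p was 0.296 for atp5if1a minus atp5if1b and for ndufab1a minus ndufab1b (0.6), and 0.334 for atp5mc3a minus atp5mc3b. The remaining 4 pairs, atp5mea and atp5meb, cox5aa and cox5ab, uqcrc2a and uqcrc2b, and cox6b1 and cox6b2, differed by -0.12 to 0.18. How far probes for one copy also bind its partner was not tested.

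In 3 of those pairs the members can be seen side by side. cox5ab had 8.39 and 7.13 in GFP-only and 7.59 and 5.13 in double-positive cells, against 7.48 and 4.17 in mCherry-only and 6.88 and 6.48 in double-negative cells, and its tumours differed more than those of any other complex IV gene (-1.86 for tumour 2 minus tumour 1). uqcrc2a, a core protein of complex III, had 7.08 to 7.79 on the GFP-positive arrays, against 6.15 to 7.13 on the GFP-negative ones, and uqcrc2b had 6.5 to 7.21, against 5.97 to 6.8. cox6b1 had 7.22 to 8.44, against 6.47 to 7.99, and cox6b2, known in mammals as a testis form, had 8.84 to 10, against 8.73 to 9.21. All 5 genes overlapped between groups. Of the 6 genes with several probe sets, atp5l and uqcrc2a had a dimmer probe set with the opposite sign, -0.19 in each against 0.74 for atp5l and 0.7 for uqcrc2a in the one used.

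Set pair by pair, the medians lay further from 0 along GFP than along mCherry. The median of the 86 genes was 0.78 for GFP-only minus mCherry-only cells, 0.77 for GFP-only minus double-negative cells, 0.85 for double-positive minus mCherry-only cells and 0.86 for double-positive minus double-negative cells. It was -0.13 for GFP-only minus double-positive cells, -0.03 for mCherry-only minus double-negative cells and 0.06 for mCherry-positive minus mCherry-negative populations. These comparisons share arrays. In the first 4, the medians of the 86 genes were 0.32 to 0.45 in tumour 1 and 0.91 to 1.36 in tumour 2. Over probe sets of like brightness the medians were 0.29 to 0.38 for both tumours together. By tumour these were -0.06 to 0.37 in tumour 1 and 0.24 to 0.61 in tumour 2. Between 67 and 71 of the 86 genes (77.9% to 82.6%) were higher in both tumours in these 4. The shares were 22.1% to 32.2% of all probe sets and 35.9% to 51.4% of those of like brightness. In mCherry-positive against mCherry-negative populations 30 genes (34.9%) were higher and 14 lower in both tumours. The share higher in both was 26.6% of all probe sets and 27.7% of those of like brightness.

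**Figure D4:**
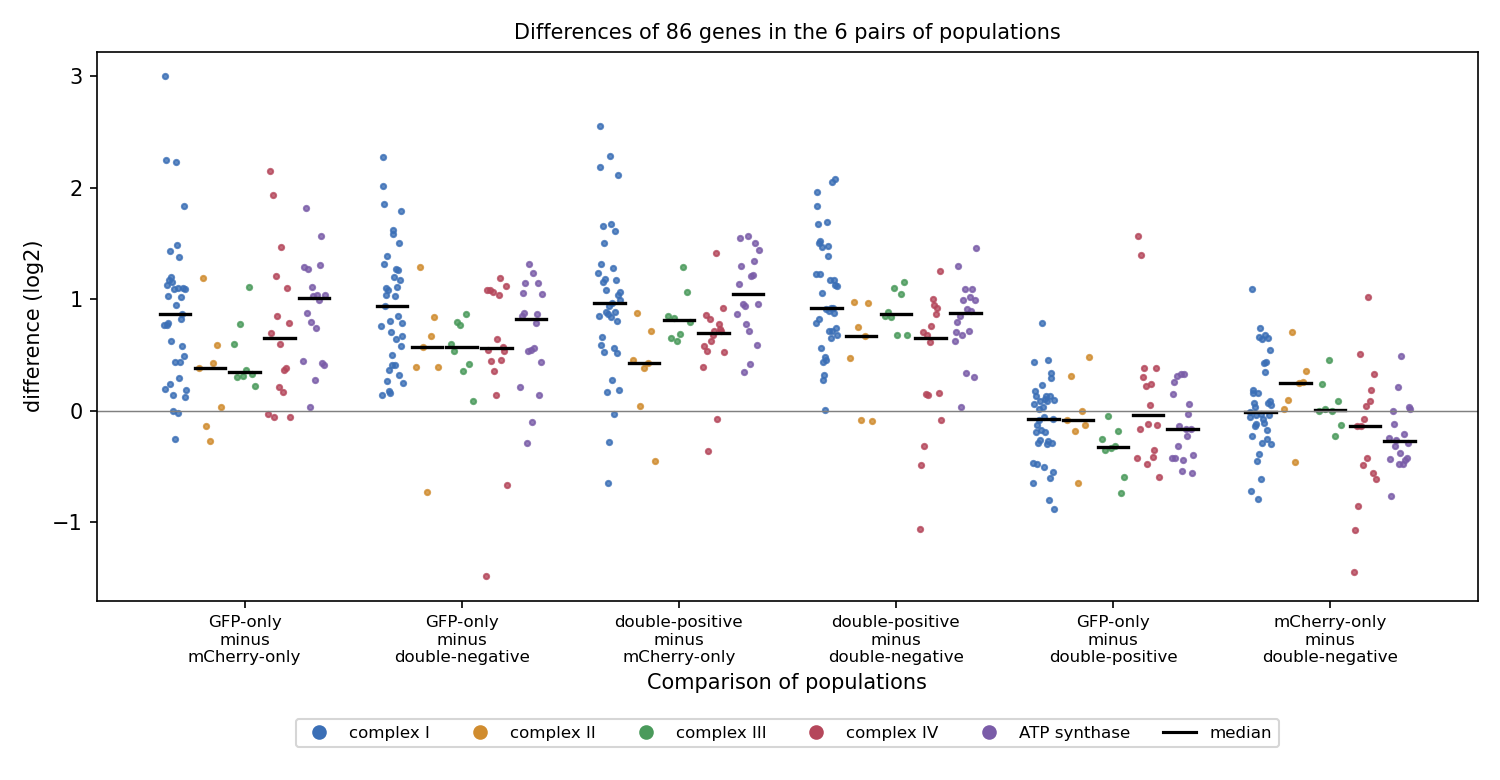
Differences (log2) of the 86 genes in the 6 pairs of populations, with a point for each gene, coloured by complex, and a line at each complex's median. Over all 86 genes the 4 comparisons of a GFP-positive with a GFP-negative population have medians of 0.77 to 0.86, and GFP-only minus double-positive and mCherry-only minus double-negative cells have medians of -0.13 and -0.03.

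limma called none of the 86 genes in any of the 6 pairs or for mCherry, with or without the tumour as a block. The share of all probe sets called was 0.858% for GFP-only against mCherry-only cells, 0.516% for GFP-only against double-negative cells and 0.00645% for GFP-only against double-positive cells. It was 0.329% for double-positive against mCherry-only cells, 0.542% for double-positive against double-negative cells, 0.277% for mCherry-only against double-negative cells and 0.284% for mCherry. A pair's standard error was 0.51 to 1.4 per gene.

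At an unadjusted p under 0.05, the 86 genes held 4 higher in GFP-only than mCherry-only cells, which were atp5f1d, cox4i2, ndufa11 and ndufa12, and 0 lower. All probe sets gave 5.88% higher and 5.37% lower. In GFP-only against double-negative cells 5 were higher and 0 lower, against 1.93% and 2.98% of all probe sets. In double-positive against mCherry-only cells 4 were higher and 0 lower, against 3.74% and 3.95%. One gene, ndufc1, was higher in double-positive than double-negative cells and 0 were lower, against 2.65% and 2.64%. Of the 1583 probe sets of like brightness, 166, 51, 150 and 87 were higher in these 4 pairs, in the order given. The numbers lower were 109, 42, 87 and 44. The share higher was larger than among the 86 genes in all but GFP-only against double-negative cells. None passed in either direction in GFP-only against double-positive cells, where all probe sets gave 0.677% higher and 1.43% lower, or in mCherry-only against double-negative cells, where they gave 3.72% and 2.46%.

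Between the tumours, the medians were furthest from 0 in the GFP-negative populations. For tumour 2 minus tumour 1, the median of the 86 genes was -0.23 in GFP-only cells, 0.05 in double-positive cells, -0.73 in mCherry-only cells and -0.92 in double-negative cells. Over all probe sets the same medians were 0.12, 0.12, 0.14 and 0.03, and over those of like brightness -0.13, 0.17, -0.04 and -0.53. The accessory subunits of complex I had medians of -1.34 in mCherry-only cells and -1.5 in double-negative cells. Whether the difference by GFP differed between the tumours was not tested. Whether it depended on mCherry was tested as an interaction in limma, and 0 of the 86 genes passed, with 0 at an unadjusted p under 0.05. The same test called 0 of all 15502 probe sets. Its standard errors for the 86 genes ran from 0.72 for uqcrq to 1.98 for ndufa9a. The result therefore does not show that the difference by GFP was the same with and without mCherry. Across the 86 genes the difference by GFP in tumour 1 and that in tumour 2 had a Pearson correlation of 0.44 and a Spearman correlation of 0.47. The same correlations were 0.5 and 0.42 over all probe sets and 0.75 and 0.69 over those of like brightness. They are a description, since genes share the arrays.

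The summed levels of myeloid, of erythroid and of lymphocyte markers were higher in the GFP-negative populations. Of 24 listed myeloid markers 16 were measured and 12 were called lower in GFP-positive populations. Their summed level, as log2 of the summed linear values, was 8.91 to 10.35 in GFP-only and 9.82 to 10.59 in double-positive cells, against 13.3 to 13.37 in mCherry-only and 12.22 to 12.63 in double-negative cells. The 13 of 17 erythroid markers measured summed to 7.14 to 8.15 in GFP-only and 8.11 to 8.48 in double-positive cells, against 9.55 to 11.14 in mCherry-only and 11.6 to 12.43 in double-negative cells, and 3 were called lower in GFP-positive populations. Gene by gene, 6 of the 13 were lower in GFP-only than mCherry-only cells in both tumours and 1 was called, hbaa1. Against double-negative cells 10 were lower in both tumours and 5 were called. Of all probe sets 0.858% and 0.516% were called in these comparisons. The 5 of 13 lymphocyte markers measured summed to 4.9 to 5.7 in GFP-only and 5.33 to 5.91 in double-positive cells. Their sums were 6.36 to 6.49 in mCherry-only and 7.67 to 8.04 in double-negative cells. By GFP, 3 of these 5 were lower and 1 higher in both tumours, and 1, ikzf1, was called lower, against 0.839% of all probe sets. The 12 of 15 exocrine pancreas markers summed to 6.8 to 7.57 in GFP-only, 7.35 to 7.71 in double-positive and 7.55 to 7.7 in mCherry-only cells, against 10.31 to 10.71 in double-negative cells, and so were high in that population alone.

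In 3 other lists, none of whose genes was called, the GFP-only sums lay above the mCherry-only ones. The 8 of 15 fibroblast and matrix markers measured summed to 9.32 to 9.84 in GFP-only and 8.36 to 9.62 in double-positive cells, against 7.31 to 7.79 in mCherry-only and 7.77 to 9.58 in double-negative cells. The 12 epithelial and skin markers summed to 10.82 to 10.97 in GFP-only and 10.15 to 10.48 in double-positive cells, against 9.5 to 9.9 in mCherry-only and 8.35 to 10.69 in double-negative cells. The 11 of 16 hypoxia and stress genes summed to 12.24 to 12.31 in GFP-only and 12.17 to 12.67 in double-positive cells, against 11.83 to 11.86 in mCherry-only and 11.39 to 11.81 in double-negative cells. Such sums weigh bright genes most. Gene by gene, the median of GFP-only minus mCherry-only cells was 0.47 for fibroblast and matrix, 0.01 for epithelial and skin and 0.27 for hypoxia and stress genes. In both tumours 5 of 8, 5 of 12 and 5 of 11 genes were higher and 1, 4 and 2 lower. Of all probe sets 32.2% were higher in both.

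No measured gene of these lists was at 0 on any array. lyz, the neutrophil lysozyme, had 1.69 to 3.43 on the GFP-positive arrays, against 1.85 and 3.6 in mCherry-only and 10.81 and 10.57 in double-negative cells. marco, a macrophage receptor, had 2.43 to 5.99 on the GFP-positive arrays, against 9.91 and 9.67 in mCherry-only and 6.1 and 4.38 in double-negative cells. hbaa1, an alpha globin, had 3.27 to 5.56 on the GFP-positive arrays, against 9.03 and 10.96 in mCherry-only and 11.19 and 12.05 in double-negative cells. The part of these cells, or of hypoxia and stress, in the differences of the respiratory chain genes was not tested.

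Fast muscle fibre genes followed another order than the respiratory chain genes. The 20 of 25 measured summed to 11.46 to 12.17 in GFP-only, 14.44 to 14.83 in double-positive, 12.96 to 14.64 in mCherry-only and 8.74 to 10.55 in double-negative cells. In the double-positive minus double-negative comparison 13 of them were called. Between GFP-positive and GFP-negative populations their median difference was 1.45 and 0 were called, or 4 with the tumour as a block. That blocked fit called 34 higher and 232 lower of all 15502 probe sets.

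Other mitochondrial genes gave values on both sides of the respiratory chain, and none was called in any comparison. The 59 mitochondrial ribosomal proteins, which translate the mitochondrially encoded subunits, had a median difference of 0.88 between GFP-positive and GFP-negative populations. It was 0.44 in tumour 1 and 1.43 in tumour 2, and 49 of these genes were higher in both tumours. mrpl22 and mrpl48 had differences of 2.36 and 2.66. The 19 genes of mitochondrial protein import had a median of 0.64 (0.29 in tumour 1 and 0.89 in tumour 2). Of these, timm50 had 2.1 and tomm20a 1.79, and 15 were higher in both tumours. The tumour 1 double-negative values of timm50 and tomm20a, 6.02 and 6.08, lay among the GFP-positive values of each gene.

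Genes that feed or regulate the chain had smaller medians. It was 0.46 for 19 genes of the TCA cycle and pyruvate dehydrogenase, 0.41 for 12 electron carriers and coenzyme Q enzymes, 0.33 for 16 genes of fatty acid oxidation, 0.26 for 17 assembly factors outside the symbol rule and 0.11 for 8 genes of ADP, phosphate and creatine exchange. dlat, the acetyltransferase of pyruvate dehydrogenase, had 7.04 and 7.11 in GFP-only cells, against 6.32 and 1.06 in mCherry-only cells. It had 7.02 and 7.37 in double-positive and 7.02 and 4.7 in double-negative cells. idh3b, a subunit of NAD-dependent isocitrate dehydrogenase, had 6.98 and 7.21 in GFP-only cells, against 4.41 and 3.83 in mCherry-only cells. In double-positive cells it had 6.02 and 6.66 and in double-negative cells 6.7 and 4.26, so that its GFP-positive and GFP-negative values overlapped. Of 9 regulators of mitochondrial biogenesis (median 0.38), tfam, which packages and transcribes mitochondrial DNA, had a difference of 1.00 and yy1b, a transcription factor, 1.12. By limma the adjusted p was 0.481 for tfam and 0.336 for yy1b. The tumour 1 double-negative value of tfam, 6.3, lay above its GFP-positive values of 5.5 to 6.15.

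**Figure D5:**
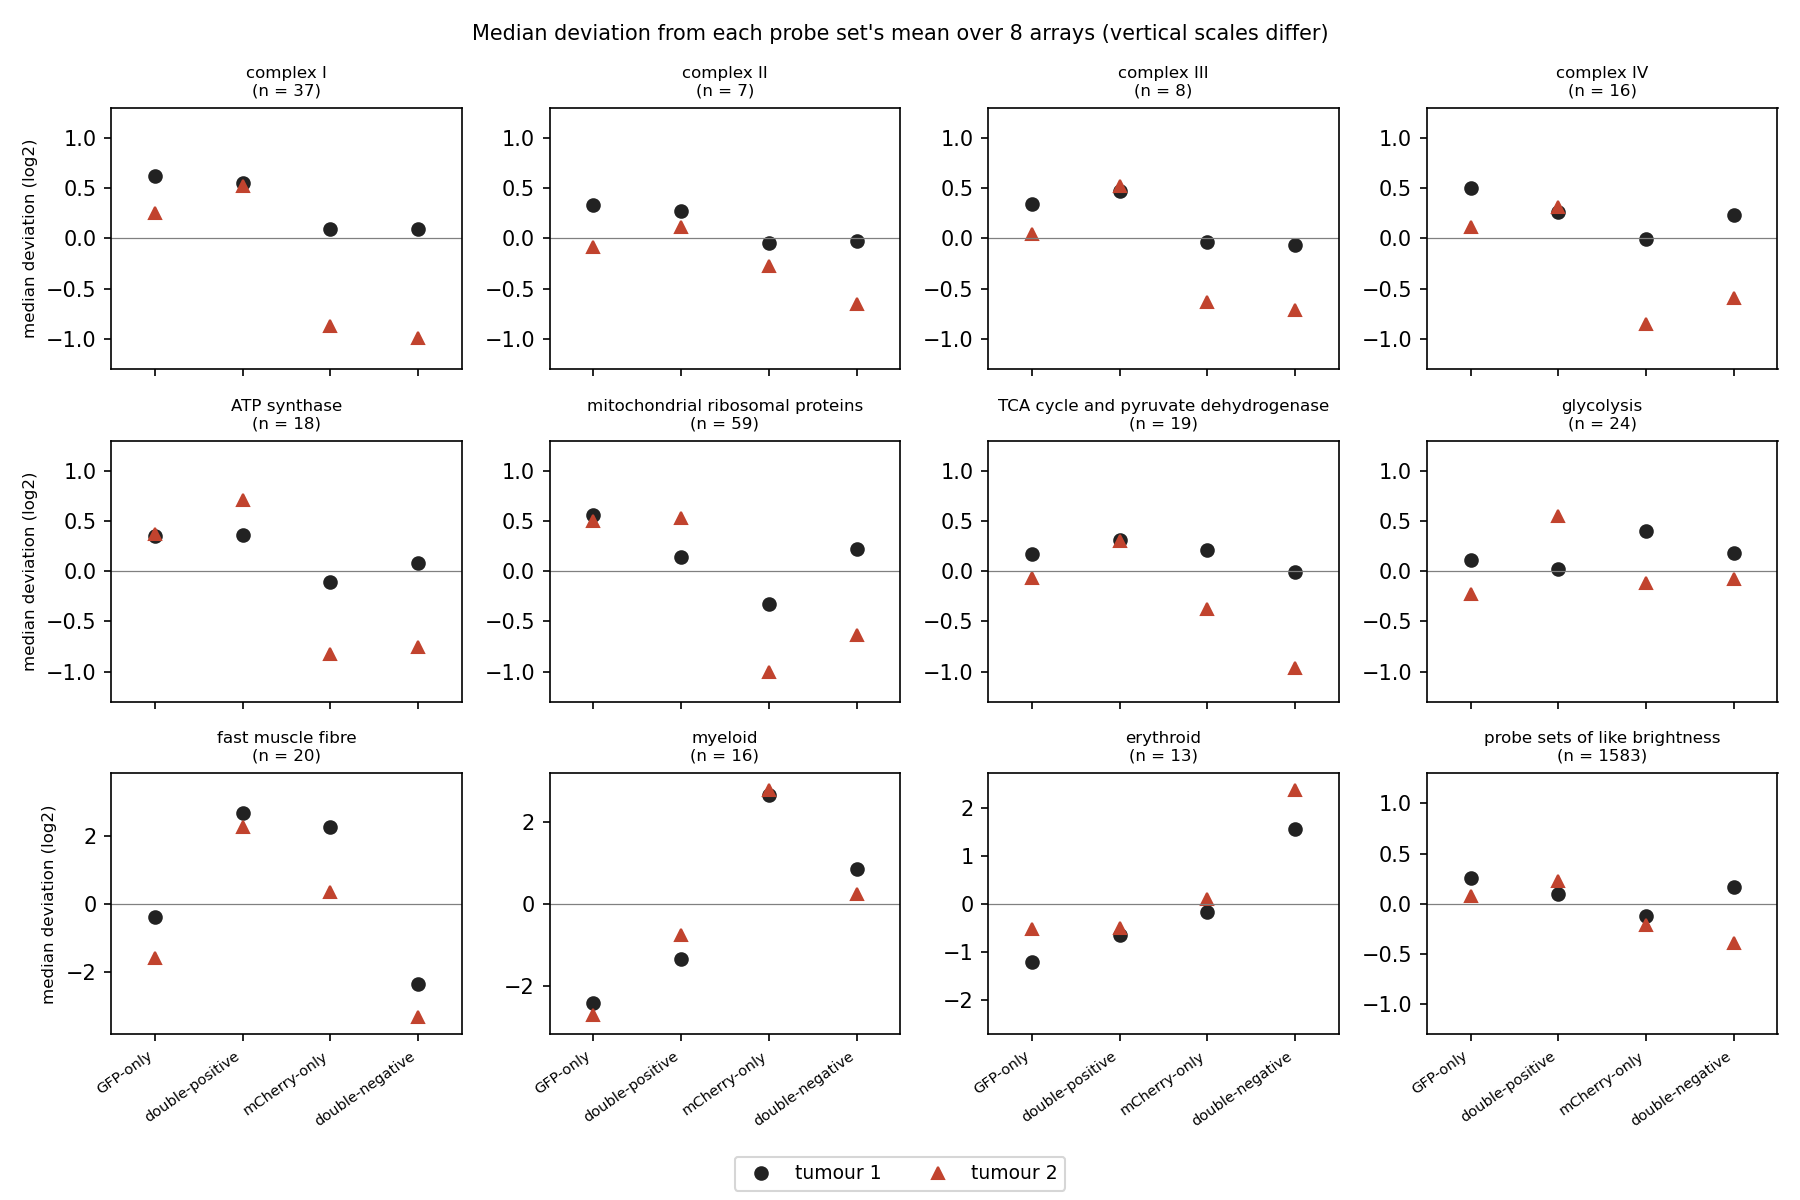
Median deviation (log2) of each complex and of other gene lists from each probe set's own mean over the 8 arrays, by population, with circles for tumour 1 and triangles for tumour 2 and vertical scales that differ between panels. The deviation of ATP synthase is 0.35 and 0.37 in GFP-only and 0.36 and 0.71 in double-positive cells of tumours 1 and 2, against -0.11 and -0.83 in mCherry-only and 0.08 and -0.76 in double-negative cells, while glycolysis shows no such split.

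Glycolysis, the cytosolic route to ATP, did not share the direction: its 24 genes had a median of 0.02, with 9 higher and 9 lower in both tumours. hk2, a hexokinase, had 4.62 and 4.27 in GFP-only cells, against 7.38 and 7.03 in mCherry-only cells. pfkma, the muscle phosphofructokinase, had 2 and 2.58 in GFP-only, 6.51 and 6.34 in double-positive, 6.27 and 4.8 in mCherry-only and 3.07 and 3.63 in double-negative cells. In the fit without the tumour block it was the only glycolysis gene called, lower in GFP-only than mCherry-only cells by limma (adjusted p = 0.0467, difference -3.24 ± 0.62 SE) and also called for mCherry. With the tumour as a block, 3 glycolysis genes were called higher and 1 lower in double-positive than double-negative cells (smallest adjusted p = 0.00704). Of all 15502 probe sets 74 were higher and 91 lower there. By GFP 1 was called higher and 1 lower (0.0283), against 34 and 232 of all probe sets. The blocked fit also called 1 lower in GFP-only than mCherry-only cells, 1 lower in GFP-only than double-positive cells and 1 higher for mCherry.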

How the data were processed

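Values of 15502 probe sets on 8 arrays were deposited on a log scale and read here as log2. The sources used here do not give the base, probe summary or scaling that the authors used; if the base were natural, folds would be larger and limma p-values the same. Per the labels' protocols, total RNA was amplified by a NuGEN kit (Ovation Pico WTA) and biotin-labelled. The table of probe annotation gave 1 gene symbol to 10795 probe sets, several to 135 and none to 4572, and 1 symbol was updated.

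The values were used as deposited. limma 3.58.1 in R 4.3.3 (lmFit and eBayes, 4 population means, 4 residual degrees of freedom) tested 8 comparisons over all probe sets, two-sided, with Benjamini-Hochberg adjustment and a threshold of 0.05. Code was tested on simulated data. Groups came from the labels. Populations of 1 tumour share an animal, so tumour numbers pair the arrays: correlations of deviations between populations ranged from -0.0291 to 0.492 over all probe sets. The blocked fit was an alternative, with other scalings, a filter on the dimmest 30% of probe sets, the mean of a gene's probe sets, and arrays left out. Precision is limited by having 2 arrays per population, and no array quality values were used.

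The members and lists were chosen with earlier results of these data known. Genes were named by rule: any called, in each complex those with the largest difference for 3 comparisons (same sign in both tumours) or between tumours, and fixed core subunits and duplicated forms. From other lists, at most 2 genes by GFP-only minus mCherry-only and any called were named. Some genes outside the rule are marked as named after their values were seen. Others appear without that mark, as extremes of a group, examples of an order, copies of a pair, reporter sources or genes with several probe sets.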

Additional observations from a re-analysis of the deposited data

How the results depend on the processing

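No gene of the 86 was called under any alternative computed, with the exception of GFP-positive against GFP-negative populations without the tumour 1 double-negative array. There ndufa11 (3.28, adjusted p = 0.0131), ndufa12 (2.80, 0.0207) and ndufs6 (2.91, 0.0199) were called by limma, among 3.25% of all probe sets, so that leaving out 1 array gave 0 to 3 genes. The tumour block gave 0 called in each of the 8 comparisons and a smallest adjusted p of 0.0675. The median difference by GFP was 0.6 to 0.99 with 1 array left out, 0.61 after quantile normalization and 0.8 with centred arrays. The count of non-overlapping genes was 23 to 42 with 1 array left out. It was 42 without the tumour 1 double-negative array and 36 without the tumour 2 GFP-only array. Fewer arrays make non-overlap easier for any probe set. Without both tumour 2 GFP-negative arrays the share of all probe sets was 5.87%, against 2.34% with all arrays. With 1 array left out that share was not computed, so the rise is not a result about these genes.

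Without both tumour 2 GFP-negative arrays, the median was 0.31 for GFP-only minus mCherry-only cells and 0.28 for GFP-only minus double-negative cells. With 1 array left out these were 0.31 to 1.07 and 0.28 to 1.19, mCherry-only minus double-negative cells gave -0.48 to 0.4, and mCherry -0.16 to 0.28. In 12 results for named genes, none called, the sign changed. For GFP-only minus mCherry-only cells without those 2 arrays, the values were -0.7 for ndufa9a, 0.22 for sdhaf3, -0.03 for ndufs1, -0.31 for atp5if1b, -0.26 for atp5mc3b and -0.05 for uqcrc2b, and uqcrc2a was -0.08 with the mean of its probe sets. With 1 array left out, the ranges were -0.7 to 3.55 for ndufa9a, -0.51 to 0.22 for sdhaf3, -0.03 to 1.18 for ndufs1, -0.31 to 0.38 for atp5if1b, -0.26 to 0.82 for atp5mc3b, -0.05 to 0.78 for uqcrc2b and -0.13 to 0.55 for cox6b2. By GFP without the 2 arrays, cox5ab was -0.12, ndufa9a -0.23 and cox6b1 -0.02. With 1 left out, atp5if1b was -0.16 to 0.23 and cox5ab -0.02 to 1.63. Leaving out the 2 arrays set GFP-positive arrays of both tumours against GFP-negative arrays of tumour 1 alone. Any difference between the tumours therefore enters those values. Within tumour 1, GFP-only minus mCherry-only cells gave 0.63 for ndufa9a and 0.39 for ndufs1, but -0.61 for atp5if1b and -0.35 for atp5mc3b. By GFP, tumour 1 gave 0.89 for ndufa9a, 0.81 for cox5ab and 0.33 for cox6b1. Other causes of these changes were not tested. Groups of 2 arrays limit what can be called.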
